A study of Mus musculus with 18 samples.

Results

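Mammary tumours of mice labelled Wnt1_iFGFR1 (4 arrays, called iFGFR1 here) were set against tumours labelled Wnt1 (6 arrays) across the 16887 genes that the deposited table measured under a symbol. The 10 arrays were taken by the label of the tumour channel, with no measured value entering the choice, out of 18 arrays in the series. The other 8 arrays are 4 labelled Wnt1_iFGFR2 and 4 labelled Wnt1_iR2, called iFGFR2 and iR2. They entered the fit of all 18 arrays, which gives the spread behind each p-value. Their values appear below only where the difference of iFGFR1 from them was tested. Wnt1 stands in the label of every group, so the controls carry it too. The sample titles of all groups add FVB and MMTV, and the labels name the tissue a primary mammary tumor. The age of the mice, the promoter of the receptor and any ligand or dimerizer they received do not appear in the labels, nor is it said that each array is a separate animal. The spread behind each p-value may therefore be technical.

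Wnt1 is a secreted ligand that stabilises β-catenin, and its expression from the MMTV promoter in mammary epithelium gives tumours that hold luminal and basal epithelial cells side by side. FGF receptor 1 is a receptor tyrosine kinase that acts through the adaptors FRS2 and GRB2 on the RAS and ERK cascade and on PI3 kinase. ERK output is read from feedback inhibitors such as the Sprouty and dual-specificity phosphatase genes and from ETS factors. The labels do not expand iFGFR1. In published mouse models the name stands for a kinase domain of FGFR1 joined to a domain that a chemical dimerizer brings together.

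Every value below is a log2 ratio of tumour RNA to a pool of whole-mouse RNA, and a difference is iFGFR1 minus Wnt1 on that scale. A ratio compares tumours for 1 gene and does not rank genes by their level. The ratio is read as tumour over pool from the dye labels and as base 2, since the table states neither. Luminal keratin and the liver enzyme lie on opposite sides of the pool on this reading, with Krt18 at 3.26 to 4.01 on the iFGFR1 arrays and 1.83 to 3.59 on the Wnt1 arrays and Cps1 at -5.59 to -4.37 on the iFGFR1 arrays and -7.77 to -6.66 on the Wnt1 arrays. Epcam, an adhesion molecule of epithelium, lay at 2.26 to 4.11 on the iFGFR1 arrays and 1.40 to 2.43 on the Wnt1 arrays. An array of each group stood apart. Wnt1 replicate 3 correlated with the other Wnt1 arrays at 0.764 to 0.793, where each of those had a median correlation of 0.873 to 0.897 within the group, and its milk protein genes averaged 3.77 against 0.29 to 0.62 on the other Wnt1 arrays. iFGFR1 replicate 2 had an interquartile range of 0.897 over all genes, against 1.09 to 1.135 on the other iFGFR1 arrays, and lay lowest of its group for several gene lists below.

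Of the 16887 genes, 2608 (15.4%) passed limma's test at a Benjamini-Hochberg adjusted p under 0.05. In iFGFR1 tumours 1415 (8.38%) were higher and 1193 (7.06%) lower, and 5039 genes had an unadjusted p under 0.05. The median difference over all genes was 0.02. Counts of gene lists below are to be read against the 15.4% of all genes that passed, 8.38% higher and 7.06% lower. A change of at least 1 log2 unit was called for 594 higher and 543 lower genes, and of at least 2 units for 63 and 84. The Wnt1 mean lay above the whole-mouse pool for 751 of the 1193 lower genes but for 350 of the 1415 higher ones. The groups did not overlap for 824 genes with all 4 iFGFR1 arrays above (4.88%) and for 778 with all 4 below (4.61%). The number of genes passed was 3084 without Wnt1 replicate 3, 3007 without iFGFR1 replicate 2 and 3481 without both, a choice made after the data were seen, and the median SD between replicates was 0.38 in iFGFR1 tumours and 0.33 in Wnt1 tumours. Without iFGFR1 replicates 1 and 3 in turn, 1758 and 1750 genes passed. In a fit of the 10 compared arrays alone 1856 genes passed, 991 higher and 865 lower.

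**Figure D1:**
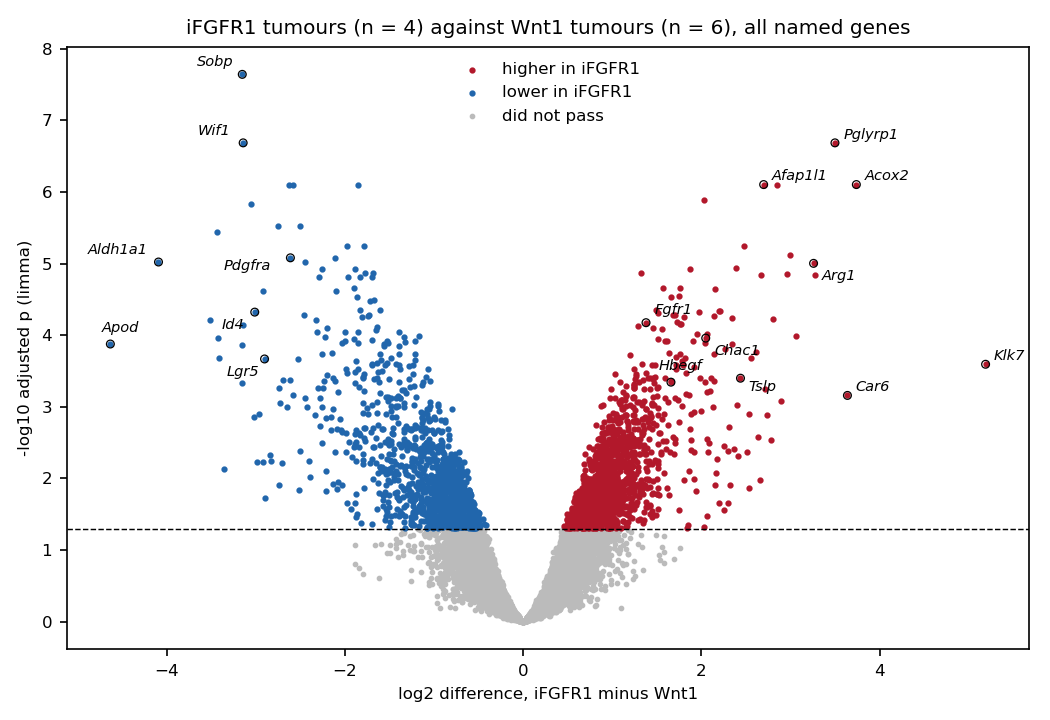
Each point is 1 of 16887 genes, with the log2 difference iFGFR1 minus Wnt1 on the x axis and -log10 of limma's adjusted p on the y axis. The dashed line marks an adjusted p of 0.05. Klk7 lies farthest right at 5.19 and Apod farthest left at -4.63, and Sobp has the smallest adjusted p.

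Fgfr1 was read at 2.15, 1.5, 1.32 and 1.42 on the iFGFR1 arrays, against -0.06, 0.24 and 0.35 as the lowest, median and highest of the Wnt1 arrays. The groups did not overlap, and the difference was 1.38 (SE 0.18, adjusted p = 6.7e-05). Direct comparison placed Fgfr1 in iFGFR1 tumours also above iFGFR2 by 1.39 (adjusted p = 0.00085) and above iR2 by 1.04 (adjusted p = 0.00238). Whether this feature reads a transgene, the endogenous gene or both cannot be told from the files. Fgfr2 stood at -1.02 to -0.30 on the iFGFR1 arrays and -0.29 to 0.51 on the Wnt1 arrays and missed the threshold (-0.69 (adjusted p = 0.0579)), and so did Wnt1 itself (-0.15 (adjusted p = 0.739)) and Fkbp1a (-0.11 (adjusted p = 0.802)), which codes for the protein from which dimerizer-binding domains derive. Among FGF ligand, receptor and adaptor genes, 3 of 36 measured genes rose and 0 fell, with a median difference of 0.06. Without Wnt1 replicate 3 the number risen was 5. Beside Fgfr1 these were the adaptor Grb2, up by 0.88, and the ligand Fgf8, up by 0.67 with an adjusted p of 0.0457. The ligand Fgf3 read 0.30, 0.82, 0.30 and 1.78 on the iFGFR1 arrays, against -1.08, 0.02 and 0.26 as the lowest, median and highest of the Wnt1 arrays. Its groups did not overlap, but the difference of 0.97 did not pass (adjusted p = 0.0948). Fgf8 lost its call in 11 of 22 alternative settings.

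A minority of ERK feedback genes and ETS factors passed, 30.4% against 15.4% of all genes. Of 23 measured, 6 rose and 1 fell, the median difference was 0.23, and the list mean was 0.99 to 1.14 on the iFGFR1 arrays, above all Wnt1 arrays (0.57 to 0.77). Over the alternative settings 3 to 6 of them rose, with 3 both under scaling to 1 median absolute deviation and with the title number as covariate. Etv1, an ETS factor, stood at 1.04, 1.69, 1.60 and 2.38 on the iFGFR1 arrays, against -0.98, -0.31 and 0.01 as the lowest, median and highest of the Wnt1 arrays. It rose by 2.04 (SE 0.33, adjusted p = 0.000456) with no overlap. Ier3, an early response gene of ERK and NF-κB signalling, rose by 1.76 (SE 0.23, adjusted p = 6.89e-05), also with no overlap. Dusp6, the phosphatase that acts on ERK in the cytoplasm, rose by 1.06 (SE 0.29, adjusted p = 0.0173), its nuclear relative Dusp4 by 0.92 (SE 0.21) and Dusp7 by 0.77 (SE 0.26). Phlda1 rose by 1.39. The zinc finger gene Egr1 went the other way, with -0.01, 0.59, 0.20 and -0.07 on the iFGFR1 arrays, against 0.31, 1.44 and 2.23 as the lowest, median and highest of the Wnt1 arrays. It fell by 1.17 (SE 0.39, adjusted p = 0.0462), and 3 of 4 iFGFR1 arrays lay below every Wnt1 array. The best known FGF feedback genes Spry2 (-0.08), Spry4 (0.34) and Spry1 (0.61) and the ETS factors Etv4 (0.23) and Etv5 (0.52) did not pass. Dusp7, Egr1, Phlda1 and Dusp6 lost their calls in 16, 9, 7 and 5 of 22 alternative settings.

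Some ligands and brakes of the EGF receptor changed as well. Hbegf, the heparin-binding EGF-like ligand, stood at 0.59, 0.67, 1.47 and 1.44 on the iFGFR1 arrays, against -1.47, -0.44 and -0.30 as the lowest, median and highest of the Wnt1 arrays. No iFGFR1 array overlapped the Wnt1 arrays, the rise was 1.66 (SE 0.27, adjusted p = 0.000453), and Hbegf was higher than in iFGFR2 by 1.86 (adjusted p = 0.00208) and than in iR2 by 2.23 (adjusted p = 0.000149). Among the brakes on this receptor were Errfi1, which binds and inhibits its kinase domain and rose by 1.27 (SE 0.31), and Lrig1, which promotes its degradation and rose by 0.89 (SE 0.17). The ligand Epgn fell by 1.37 (SE 0.35). Over the 16 measured genes of this axis 3 rose and 1 fell (median -0.09), and Egfr (0.64) and Erbb2 (-0.25) did not pass. Without iFGFR1 replicate 2 the difference of Egfr was 0.90 and passed (adjusted p = 0.0245). Ligands of other receptor tyrosine kinases were lower where they passed, 5 of 22 with 0 higher. They were Gas6, the ligand of AXL, down by 1.85, Kitl, the ligand of KIT, down by 1.63, Bdnf, down by 1.43, Pdgfa, down by 1.40, and Efnb1, down by 1.40. The receptors Epha2 and Ephb4 rose by 0.98 and 0.88, and Ephb6 and Ntrk2 fell by 1.56 and 0.59. The value of Ntrk2 is the mean of 2 features that disagreed, with differences of -1.23 and 0.06. Over ligands and receptors together 7 of 52 fell and 2 rose (17.3% passed, near the 15.4% of all genes). Without Wnt1 replicate 3 the number fallen was 12. Epgn, Ephb6 and Errfi1 lost their calls in 2, 2 and 1 of 22 alternative settings. Ntrk2 lost its call in 13 of the 20 alternative settings in which it could be fitted.

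The largest rise of all named genes was that of a kallikrein. Klk7, a chymotrypsin-like kallikrein that cleaves desmosomes of shedding skin, stood at 2.21, -0.10, 1.15 and 1.24 on the iFGFR1 arrays, against -4.99, -4.83 and -0.08 as the lowest, median and highest of the Wnt1 arrays. Wnt1 replicate 3, at -0.08, met the lowest iFGFR1 array, and the other 5 Wnt1 arrays of Klk7 lay at -4.99 to -4.67. The difference was 5.19 (SE 0.79, adjusted p = 0.000255), or 36.4-fold. Klk6, a trypsin-like relative, showed the same split, with 2.94, 3.23, 3.11 and 3.46 on the iFGFR1 arrays, against -0.72, -0.21 and 3.24 as the lowest, median and highest of the Wnt1 arrays. Wnt1 replicate 3 held the highest Wnt1 value, level with the iFGFR1 arrays, and the rise was 2.90 (SE 0.51, adjusted p = 0.000835). Klk10 and Klk5, which sit in the same gene cluster, rose by 1.38 and 1.08, and Spink5, the inhibitor of these proteases, by 1.31, while Klk8 did not pass (-0.11). In all 5 of 9 kallikreins and inhibitors rose. Each was set directly against the other receptor tumours, and 4 of the 9 were higher than in iFGFR2, where 0.924% of all genes were, and 5 higher than in iR2, where 6.84% were. Spink5 lost its call in 2 of 22 alternative settings.

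The envelope and desmosome genes of cornifying epithelium did not move together. Of 29 measured, 4 rose and 2 fell. Calm4, a calmodulin-like protein of skin, rose by 2.18, Krtdap, a small secreted keratinocyte protein, by 1.86, the desmosomal cadherin Dsc1 by 1.28 and Pkp3 by 0.67. Envoplakin, Evpl, fell by 1.88. Calml3, a calmodulin-like protein of stratified epithelium, stood at 0.29, -0.97, -0.86 and -0.14 on the iFGFR1 arrays, against -0.13, 2.78 and 2.97 as the lowest, median and highest of the Wnt1 arrays. It fell by 2.73 (SE 0.48, adjusted p = 0.00088), with 3 of 4 iFGFR1 arrays below every Wnt1 array and Wnt1 replicate 3 the lowest of its group. Loricrin, Lor (0.14), involucrin, Ivl (0.67), and transglutaminase Tgm1 (-0.24) did not pass. Crct1, a gene of the epidermal differentiation complex, was among the 5 smallest p-values outside the lists and rose by 2.48 (SE 0.26, adjusted p = 5.76e-06), with no overlap. Pkp3, Dsc1 and Evpl lost their calls in 14, 2 and 2 of 22 alternative settings.

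Aqp5, Car6 and Kcnn4, genes of water, pH and ion handling, were among the 20 largest rises. Aqp5, the apical water channel of glands, stood at 3.58, 5.56, 3.99 and 4.77 on the iFGFR1 arrays, against 0.59, 1.25 and 1.71 as the lowest, median and highest of the Wnt1 arrays. The groups did not overlap and the rise was 3.28 (SE 0.37, adjusted p = 1.43e-05), or 9.71-fold. Car6, a secreted carbonic anhydrase of saliva and milk, stood at -0.16, 0.91, -1.0 and 0.24 on the iFGFR1 arrays, against -3.97, -3.80 and -2.71 as the lowest, median and highest of the Wnt1 arrays and rose by 3.64 (SE 0.62, adjusted p = 0.000694), and Car9 and Car13 rose by 1.46 and 1.2. Kcnn4, a calcium-activated potassium channel, stood at 3.36, 4.99, 4.8 and 4.86 on the iFGFR1 arrays, against 0.90, 1.42 and 3.10 as the lowest, median and highest of the Wnt1 arrays and rose by 2.80 (SE 0.37, adjusted p = 6.03e-05). For Aqp5, Car6 and Kcnn4 every iFGFR1 array lay above every Wnt1 array. Of 26 carbonic anhydrases and aquaporins, 6 rose and 1 fell (median 0.45). Aqp5 and Car6 differed from iFGFR2 tumours by 0.51 (adjusted p = 0.584) and -0.73 (adjusted p = 0.641) and from iR2 tumours by 0.78 (adjusted p = 0.237) and -1.10 (adjusted p = 0.324), so no difference from the other receptor tumours passed for either gene.

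Prom1, Tspan1 and Cldn1 were also among the 20 largest rises. Prom1, the CD133 protein of membrane protrusions, stood at 3.56, 3.21, 3.87 and 3.52 on the iFGFR1 arrays, against 0.26, 0.72 and 1.25 as the lowest, median and highest of the Wnt1 arrays. It rose by 2.85 (SE 0.25, adjusted p = 7.91e-07) with no overlap, and the tetraspanin Tspan1 rose by 2.96 (SE 0.34, adjusted p = 1.39e-05), also with no overlap. Cldn1, a claudin that seals tight junctions, stood at 1.98, 0.69, 1.86 and 2.07 on the iFGFR1 arrays, against -2.15, -0.96 and -0.27 as the lowest, median and highest of the Wnt1 arrays and rose by 2.67 (SE 0.30, adjusted p = 1.43e-05). Cldn10, a claudin that forms pores for ions, rose by 2.32, Cldn7 by 1.25, Cldn18 by 1.22 and Cldn3 by 0.80, while Cldn14 fell by 0.53. Of 30 junction genes, 7 rose and 1 fell (median 0.13), the others being occludin, Ocln, at 1.04 and tricellulin, Marveld2, at 0.76. Afap1l1, an actin-associated adaptor, rose by 2.70 (SE 0.23, adjusted p = 7.91e-07) and Phactr1, a regulator of protein phosphatase 1 and actin, by 3.06 (SE 0.42, adjusted p = 0.000102), each with no overlap. Cldn3 and Cldn18 lost their calls in 12 and 5 of 22 alternative settings. Cldn14 lost its call in 12 of the 21 alternative settings in which it could be fitted.

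**Figure D2:**
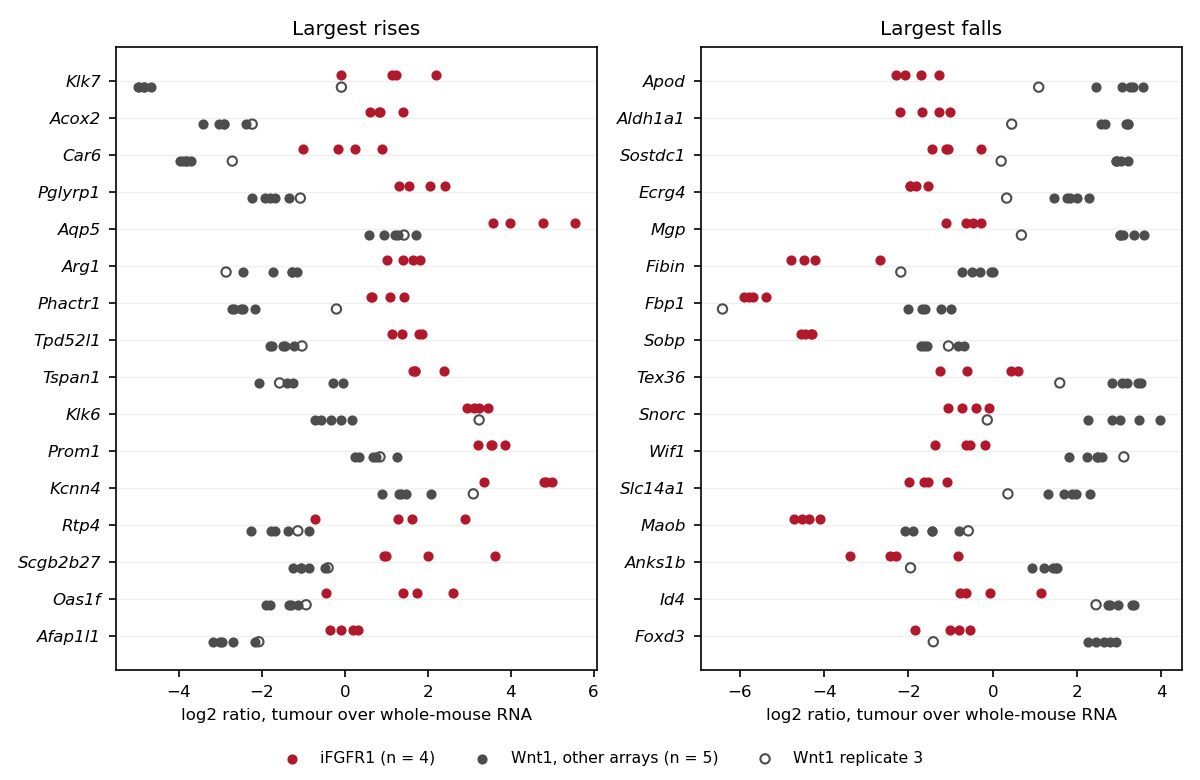
Log2 ratios to whole-mouse RNA of the 16 largest rises (left) and 16 largest falls (right) among genes that passed, with red points for the 4 iFGFR1 arrays, filled grey points for 5 Wnt1 arrays and an open circle for Wnt1 replicate 3. For Klk7, Klk6, Fbp1 and Foxd3 the open circle lies among or beyond the iFGFR1 arrays, while for Aqp5, Sobp and Wif1 it lies among the other Wnt1 arrays or farther from the iFGFR1 arrays.

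Other genes of varied functions were among the 20 largest rises. Acox2, the peroxisomal oxidase of branched fatty acids and bile acid precursors, stood at 1.41, 0.84, 0.82 and 0.61 on the iFGFR1 arrays, against -3.41, -2.92 and -2.23 as the lowest, median and highest of the Wnt1 arrays. It rose by 3.74 (SE 0.33, adjusted p = 7.91e-07), or 13.3-fold, with no overlap. Pglyrp1, a peptidoglycan recognition protein that neutrophils and epithelia secrete, stood at 1.32, 2.41, 2.05 and 1.55 on the iFGFR1 arrays, against -2.23, -1.73 and -1.07 as the lowest, median and highest of the Wnt1 arrays and rose by 3.5 (SE 0.27, adjusted p = 2.07e-07), and it was also higher than in iFGFR2 by 1.80 (adjusted p = 0.00229) and than in iR2 by 2.42 (adjusted p = 5.31e-05). The secretoglobin gene Scgb2b27 stood at 0.95, 3.63, 1.0 and 2.0 on the iFGFR1 arrays, against -1.24, -0.96 and -0.40 as the lowest, median and highest of the Wnt1 arrays. It rose by 2.74 (SE 0.51, adjusted p = 0.00132) without overlap, and its difference from iR2 ran the other way, at -1.96 (adjusted p = 0.026). Transferrin, Trf, and Thrsp, a regulator of lipid synthesis, are also genes of the lactating gland. They rose by 2.66 and 2.64, but Wnt1 replicate 3, at 0.65 for Trf and -0.13 for Thrsp, overlapped the iFGFR1 arrays, and its milk proteins were high as given above. Tpd52l1, a coiled-coil protein of the D52 family, rose by 2.99 (SE 0.32, adjusted p = 7.63e-06) and Gad1, the enzyme that makes GABA from glutamate, by 2.61 (SE 0.38, adjusted p = 0.00017), both with no overlap. The heat shock protein gene Hspb8 (2.03), the glutaredoxin gene Glrx (2.39), Zmynd10 (1.87) and the chromatin remodelling subunit Smarce1 (1.32) had the other smallest p-values among rises outside the lists (adjusted p = 1.28e-06, 1.16e-05, 1.21e-05 and 1.36e-05).

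Alveolar and luminal genes did not move together in 1 direction. Spdef, a factor of secretory epithelium, stood at 1.66, 1.78, 1.04 and 2.35 on the iFGFR1 arrays, against -0.71, -0.51 and -0.04 as the lowest, median and highest of the Wnt1 arrays and rose by 2.14 (SE 0.35, adjusted p = 0.000435) with no overlap, and neither its difference from iFGFR2 nor that from iR2 passed (-0.69 (adjusted p = 0.387) and -0.21 (adjusted p = 0.78)). Csn3, κ-casein, stood at 6.57, 7.41, 7.34 and 7.17 on the iFGFR1 arrays, against 3.0, 4.47 and 6.67 as the lowest, median and highest of the Wnt1 arrays. It rose by 2.53 (SE 0.46, adjusted p = 0.00126), and Wnt1 replicate 3 lay within the iFGFR1 range. The other major milk proteins did not follow, since Csn2 (-0.82), Csn1s1 (-0.76), Wap (0.18) and Lalba (-0.13) did not pass and Glycam1 fell by 1.5. Without Wnt1 replicate 3 the differences of Csn2, Csn1s1 and Lalba turned to 0.29, 0.32 and 0.43. Of 25 luminal progenitor and alveolar genes 5 rose and 5 fell (median 0.21), and the number risen was 2 under scaling to 1 median absolute deviation and 3 with the title number as covariate or without iFGFR1 replicate 4. Xbp1, a factor of secretory cells, rose by 1.30, the ion carrier Slc12a2 by 1.39, Epcam by 1.02 and Cebpb by 0.83. The retinal dehydrogenase Aldh1a3 fell by 1.78, the annexin Anxa8 by 2.84 and the integrin gene Itgb3 by 0.84. Elf5, the alveolar master factor, stood at 3.66 to 4.22 on the iFGFR1 arrays and 1.59 to 5.44 on the Wnt1 arrays, and its difference of 1.18 did not pass (adjusted p = 0.114). Wnt1 replicate 3 stood at 5.44 and the other Wnt1 arrays at 1.59 to 2.72, and without it the difference was 1.72 (adjusted p = 0.000177). Hormone-sensing genes passed in 1 case upward (Prom1) and 1 downward (Ly6d, by 2.15) of 14, and Esr1 (0.15) and Pgr (0.09) were not among them. Epcam, Cebpb, Csn3, Xbp1 and Slc12a2 lost their calls in 5, 4, 2, 1 and 1 of 22 alternative settings.

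Of 4 basal keratins 2 fell and 0 rose, and of 6 luminal and simple keratins 2 rose and 0 fell. The luminal and simple keratins had a median difference of 0.14, and 3 of the 6 differences lay above 0. Krt14, the keratin of basal and myoepithelial cells, stood at -0.07, -0.43, 0.40 and 0.11 on the iFGFR1 arrays, against 0.90, 1.81 and 2.21 as the lowest, median and highest of the Wnt1 arrays. It fell by 1.68 (SE 0.33, adjusted p = 0.00199) and its partner Krt5 fell by 1.22 (SE 0.28, adjusted p = 0.00697), both without overlap. Krt8 and Krt18, the simple keratin pair of luminal cells, rose by 1.38 (SE 0.40, adjusted p = 0.0252) and 0.97 (SE 0.31, adjusted p = 0.0378), though for each gene only 1 iFGFR1 array lay above every Wnt1 array. Krt76, a suprabasal keratin of oral epithelium, rose by 2.20 (SE 0.28, adjusted p = 4.6e-05) and exceeded iFGFR2 by 2.0 and iR2 by 2.58. Krt13 and Krt2 rose by 1.16 and 0.72, so 5 of 21 keratins rose and 2 fell (median 0.24). Over the alternative settings 2 to 7 keratins rose, with 2 as the count without iFGFR1 replicate 3 or 4 or Wnt1 replicate 1 and with the title number as covariate. Krt18, Krt8 and Krt2 lost their calls in 14, 8 and 7 of 22 alternative settings.

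Myoepithelial genes did not fall as a group. Of 29 measured, 4 rose and 6 fell, with a median of 0.01. Snai2, the repressor that marks basal cells, stood at -0.58, -0.45, -0.16 and -0.40 on the iFGFR1 arrays, against 0.81, 1.31 and 1.83 as the lowest, median and highest of the Wnt1 arrays and fell by 1.70 (SE 0.30, adjusted p = 0.000939) with no overlap. P-cadherin, Cdh3, fell by 1.33, the oxytocin receptor Oxtr by 1.11, Tagln by 1.17, the hemidesmosome collagen Col17a1 by 1.05 and Lama5 by 0.77. Smooth muscle actin, Acta2, ran against this, with -1.68, -2.24, -1.86 and -1.57 on the iFGFR1 arrays, against -3.26, -2.81 and -1.86 as the lowest, median and highest of the Wnt1 arrays. It rose by 0.92 (SE 0.27, adjusted p = 0.026), with 2 of 4 iFGFR1 arrays above every Wnt1 array, and Actg2 and Smtn rose by 0.82 and 0.78. The galectin gene Lgals7 rose by 1.42. Trp63, the basal factor p63, did not pass (-0.02), nor did Myh11 (-0.02). Oxtr, Acta2 and Col17a1 lost their calls in 5, 5 and 1 of 22 alternative settings. Smtn lost its call in 1 of the 21 alternative settings in which it could be fitted.

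Several genes of the arginine pathway were higher. Arg1, which splits arginine into ornithine and urea, stood at 1.41, 1.03, 1.81 and 1.65 on the iFGFR1 arrays, against -2.86, -1.5 and -1.16 as the lowest, median and highest of the Wnt1 arrays. The groups lay apart and the rise was 3.26 (SE 0.36, adjusted p = 9.95e-06), or 9.61-fold. Arg2, the mitochondrial arginase, rose by 2.10 (SE 0.35, adjusted p = 0.00061), Asl and Ass1, which rebuild arginine from citrulline, by 1.38 and 0.78, and Cps1, which feeds the urea cycle, by 2.06. In both groups Cps1 lay far below the whole-mouse pool, as given above. Of 16 genes of arginine and urea handling 5 rose and 1 (Agmat, by 0.61) fell, 37.5% against 15.4% of all genes. Of the 16 differences 9 lay above 0. Of 8 polyamine genes Srm rose by 0.67 (median of the whole list 0.40). Arg1 exceeded iFGFR2 by 2.06 (adjusted p = 0.00685) and iR2 by 1.71 (adjusted p = 0.00744), while Arg2 differed from them by 0.78 (adjusted p = 0.328) and 0.74 (adjusted p = 0.234). Arg1 is also made by macrophages and neutrophils, whose markers are given below. In bulk tumour RNA, more or fewer cells of a type and more or less RNA per cell cannot be told apart. Srm and Ass1 lost their calls in 12 and 8 of 22 alternative settings. Agmat lost its call in 11 of the 21 alternative settings in which it could be fitted.

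Targets of ATF4, the factor that cells translate when amino acids run short, passed more often upward than genes overall. Of 57 measured genes, 22 rose and 0 fell, 38.6%. Of all genes 8.38% were higher and 15.4% passed in either direction. The median difference of the list was 0.53 against 0.02 over all genes. The list mean was 0.71, 0.20, 0.49 and 0.44 on the iFGFR1 arrays, in the order of replicates 1 to 4, and -0.20 to -0.06 on the Wnt1 arrays. All 4 iFGFR1 arrays lay above all Wnt1 arrays, with replicate 2 the lowest of them. Chac1, which degrades glutathione, stood at 1.51, 0.02, 1.28 and 1.75 on the iFGFR1 arrays, against -1.37, -0.97 and -0.42 as the lowest, median and highest of the Wnt1 arrays and rose by 2.05 (SE 0.29, adjusted p = 0.00011) with no overlap. Atf4 itself rose by 1.35 (SE 0.25, adjusted p = 0.00147) and Eif4ebp1, the brake on cap-dependent translation, by 2.27 (SE 0.33, adjusted p = 0.000154), while Ddit3, the apoptotic factor CHOP, did not pass (0.16). Stc2, a secreted glycoprotein, rose by 1.45, Ppp1r15a, which resets the stress response, by 0.97 and Atf5 by 0.69. Atf5 lost its call in 1 of 22 alternative settings.

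Enzymes that make serine, asparagine and proline were among them. Phgdh, the entry step of serine synthesis, stood at 1.21, 0.43, 0.72 and 0.80 on the iFGFR1 arrays, against -1.09, -0.65 and -0.36 as the lowest, median and highest of the Wnt1 arrays. It rose by 1.49 (SE 0.19, adjusted p = 4.52e-05), Psat1, the next step, by 1.89 (SE 0.35, adjusted p = 0.00128), and Shmt1 and Shmt2, which turn serine into glycine, by 1.11 and 0.88. Asns, asparagine synthetase, rose by 1.23 (SE 0.25, adjusted p = 0.00275), Aldh18a1, the entry to proline, by 1.23 and Got1, the aspartate transaminase, by 1.2. Of the transporters Slc7a3, a carrier of arginine and lysine, rose by 1.57, the leucine carrier Slc7a5 by 1.07 and its partner Slc3a2 by 0.71, and the cystine carrier Slc7a11 did not pass (-0.12). Of 17 cytoplasmic tRNA synthetases 5 rose, led by Rars at 1.34 and Kars at 1.30. Shmt2 lost its call in 3 of 22 alternative settings. Slc3a2 lost its call in 1 of the 21 alternative settings in which it could be fitted.

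The ATF4 list was also set against the other receptor tumours. Of its 57 genes, 12 were higher in iFGFR1 than in iFGFR2 (0.924% of all genes were) and 18 higher than in iR2 (6.84% of all genes), with 0 and 0 lower. These comparisons share the iFGFR1 arrays with each other and with the comparison to Wnt1. Chac1 exceeded iFGFR2 by 2.23 (adjusted p = 0.000692) and iR2 by 2.01 (adjusted p = 0.000468), Phgdh by 1.48 (adjusted p = 0.000692) and 1.95 (adjusted p = 1.7e-05), and Psat1 by 1.83 (adjusted p = 0.0139) and 2.01 (adjusted p = 0.00215). Atf4 itself passed against neither, at 0.93 (adjusted p = 0.0873) and 0.47 (adjusted p = 0.296).

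Promoters of these genes were searched in the 250 bases before the start given by RefSeq on GRCm38.p6, which are shown because 22 of the list's genes rose. The element TGATGNAA, the core that ATF4 binds with C/EBP partners, lay on either strand in 10 of 43 members with a promoter entry (23.3%) and in 412 of 13425 genes (3.07%). Among members that rose it lay in 3 of 15 (20%), and among the rest in 7 of 28 (25%). The promoters of Chac1 (chr2:119350992-119351241, plus strand) and Got1 (chr19:43524606-43524855, minus strand) are printed 5′ to 3′, with the element in capitals. They were chosen by small p-value among members that rose and carry the element.
Chac1: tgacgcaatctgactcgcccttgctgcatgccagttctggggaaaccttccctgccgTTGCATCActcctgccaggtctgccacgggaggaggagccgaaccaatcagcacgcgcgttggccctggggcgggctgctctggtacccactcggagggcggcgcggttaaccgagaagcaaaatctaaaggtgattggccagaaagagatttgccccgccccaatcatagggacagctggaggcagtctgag
Got1: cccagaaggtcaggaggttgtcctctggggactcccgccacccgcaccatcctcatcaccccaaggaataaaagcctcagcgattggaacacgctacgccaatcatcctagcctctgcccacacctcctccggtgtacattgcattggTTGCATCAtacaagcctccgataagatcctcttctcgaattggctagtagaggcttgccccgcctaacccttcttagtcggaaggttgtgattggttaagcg
A match describes the letters only, and no binding was measured.

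Targets of HIF, the factor that low oxygen stabilises, were higher on some arrays more than on others. Of 29 measured, 11 rose and 0 fell (37.9%), with a median of 0.67. Of all genes 8.38% were higher and 15.4% passed in either direction. The list mean stood at 0.33, 0.25, 0.98 and 1.27 on the iFGFR1 arrays and -0.32 to 0.32 on the Wnt1 arrays, so replicates 3 and 4 lay far above Wnt1 and replicate 2 within the Wnt1 range. Without replicate 3 or replicate 4, 6 or 7 genes rose. These replicates carry the highest title numbers of the compared arrays, and with the title number as covariate 5 genes rose and the median was 0.32. The labels do not explain this number. Car9, the carbonic anhydrase that acidifies the space around hypoxic cells, stood at 2.38, 1.56, 2.15 and 2.23 on the iFGFR1 arrays, against 0.19, 0.63 and 1.06 as the lowest, median and highest of the Wnt1 arrays and rose by 1.46 (SE 0.23, adjusted p = 0.000399) with no overlap. Adm, the vasodilator adrenomedullin, stood at 1.03, 0.46, 2.62 and 3.38 on the iFGFR1 arrays, against -0.66, -0.07 and 0.95 as the lowest, median and highest of the Wnt1 arrays and rose by 1.81 (SE 0.45, adjusted p = 0.0104), and Vegfa, the main angiogenic factor, rose by 1.29 (SE 0.41, adjusted p = 0.0376) with 2 of 4 arrays above every Wnt1 array. The prolyl hydroxylase Egln3 rose by 2.09, the mitophagy receptor Bnip3 by 1.78, the glucose carrier Slc2a1 by 1.51, Ero1a by 2.06, Hilpda by 0.85, Pdk1 by 0.74 and Kdm3a by 0.70. Against iFGFR2, 4 HIF genes were higher, where 0.924% of all genes were, and against iR2 10, where 6.84% were. Among them were Car9 by 1.22 and 1.48 and Adm by 1.98 and 2.31. Pdk1, Vegfa, Slc2a1, Hilpda and Adm lost their calls in 10, 9, 4, 3 and 1 of 22 alternative settings. Kdm3a lost its call in 8 of the 20 alternative settings in which it could be fitted.

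Glycolytic enzymes that passed were mostly higher. Of 21 measured, 8 rose and 2 fell (median 0.56), and without iFGFR1 replicate 3 or 4 the number risen was 3 or 4. It was 3 with the title number as covariate, 4 with array weights and 5 in a fit of the 10 compared arrays alone. Hk1 and Hk2, which trap glucose, rose by 1.03 and 1.0, Pfkp by 1.14, Aldoa by 0.87, Tpi1 by 0.98, Pgam1 by 1.08, Ldha, which makes lactate, by 0.77 and Pdha1 by 1.21. Pfkfb4 fell by 0.79. Fbp1, which runs the opposite reaction in gluconeogenesis, stood at -5.89, -5.68, -5.77 and -5.38 on the iFGFR1 arrays, against -6.41, -1.64 and -1.0 as the lowest, median and highest of the Wnt1 arrays. It fell by 3.36 (SE 0.79, adjusted p = 0.00749), but Wnt1 replicate 3 was lower than any iFGFR1 array. Ldha, Aldoa, Hk2, Pfkp, Tpi1 and Fbp1 lost their calls in 10, 9, 7, 3, 3 and 1 of 22 alternative settings.

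Interferon-stimulated genes were high on 3 of the 4 iFGFR1 arrays. Of 50 measured genes, 21 rose and 0 fell (42%), with a median of 0.66. Of all genes 8.38% were higher and 15.4% passed in either direction. The mean of the 33 effectors was 0.25, -0.73, 1.09 and 0.45 on the iFGFR1 arrays, against -0.85 to -0.33 on the Wnt1 arrays. Replicate 2 thus lay among the Wnt1 arrays and the other 3 above all of them. With replicate 3 left out 13 genes rose, and with replicate 2 and Wnt1 replicate 3 left out 29 did.

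Isg15, the ubiquitin-like tag, stood at 0.55, -0.90, 2.08 and 0.76 on the iFGFR1 arrays, against -1.61, -1.43 and -0.75 as the lowest, median and highest of the Wnt1 arrays and rose by 1.92 (SE 0.42, adjusted p = 0.00426). Ifit1, which binds foreign RNA ends, stood at 0.42, -1.69, 1.74 and 0.08 on the iFGFR1 arrays, against -2.44, -2.05 and -1.44 as the lowest, median and highest of the Wnt1 arrays and rose by 2.07 (SE 0.45, adjusted p = 0.00426). For both genes replicate 2 fell within the Wnt1 range. Rtp4 stood at 1.62, -0.71, 2.91 and 1.28 on the iFGFR1 arrays, against -2.25, -1.52 and -0.86 as the lowest, median and highest of the Wnt1 arrays and rose by 2.78 (SE 0.57, adjusted p = 0.00295), with all 4 arrays above Wnt1. Mx2 rose by 2.37, the ISG15 protease Usp18 by 2.26, the tetherin gene Bst2 by 1.92, Gbp3 by 1.58 and Oasl2 by 1.5. The inducer Irf7 stood at 0.87, 0.42, 1.58 and 1.45 on the iFGFR1 arrays, against -1.14, -0.22 and 0.01 as the lowest, median and highest of the Wnt1 arrays and rose by 1.45 (SE 0.25, adjusted p = 0.000883), again with all 4 arrays above Wnt1, and the RNA sensor Ifih1 rose by 1.37. Oas1f, outside the list and among the 20 largest rises, rose by 2.72 (SE 0.45, adjusted p = 0.000565). The interferon gene Ifnb1 (-0.57) and the factor Irf1 (-0.33) did not pass. Class I antigen genes H2-Q1, H2-Q2 and H2-T23 rose by 1.31, 1.23 and 1.02. These genes belong to a family of near-identical copies whose features may share signal, and H2-K1 (0.22) and B2m (0.10) did not pass. H2-T23, Oasl2 and H2-Q2 lost their calls in 3, 1 and 1 of 22 alternative settings.

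**Figure D3:**
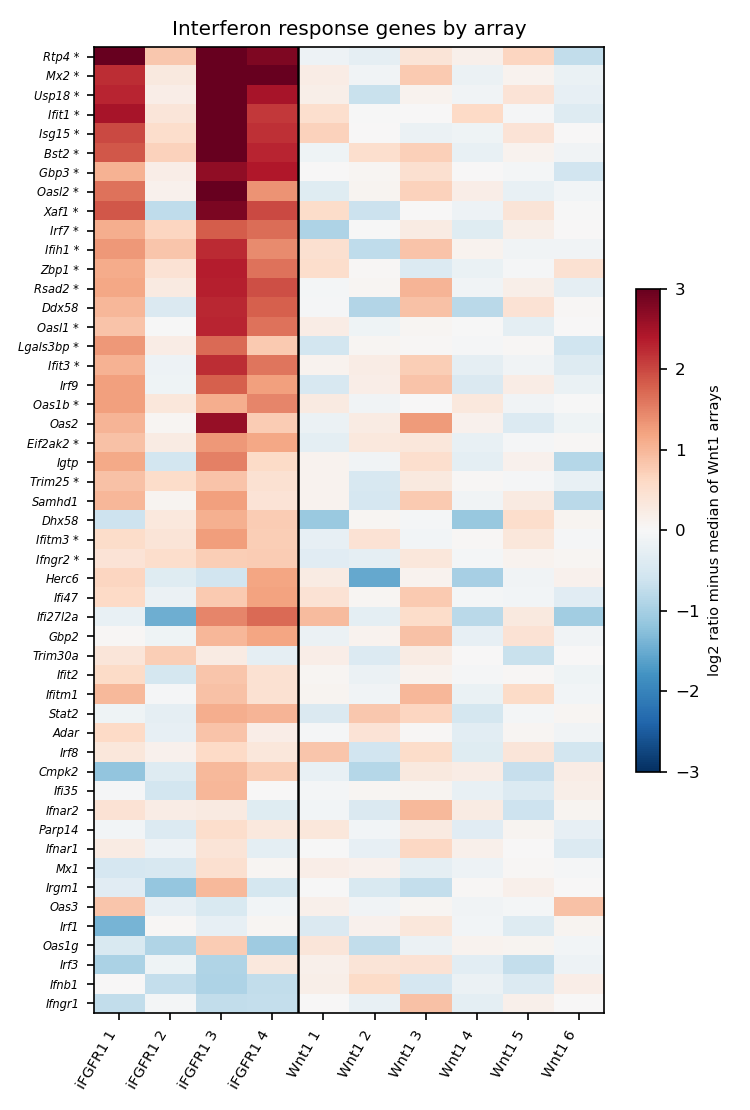
The 50 interferon response genes (rows, by falling difference) on the 4 iFGFR1 arrays and 6 Wnt1 arrays (columns), coloured by log2 ratio minus the median of the Wnt1 arrays, with colours capped at 3 units. An asterisk marks genes that passed, and iFGFR1 replicate 2 is pale where the other 3 iFGFR1 arrays are red.

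The interferon-stimulated response element, searched as GAAA and GAAA with any 2 bases between them on both strands of the same 250 bases, lay in 13 of 40 members with a promoter entry (32.5%) and in 451 of 13425 genes (3.36%). It lay in 6 of 16 members that rose (37.5%) and in 7 of 24 that did not pass (29.2%). The promoters of Bst2 (chr8:71537473-71537722, minus strand), Isg15 (chr4:156200819-156201068, minus strand) and Ifit1 (chr19:34640639-34640888, plus strand) are printed 5′ to 3′. They were chosen by small p-value among members that rose and carry the element. Capitals mark the element, and overlapping matches merge into 1 run.
Bst2: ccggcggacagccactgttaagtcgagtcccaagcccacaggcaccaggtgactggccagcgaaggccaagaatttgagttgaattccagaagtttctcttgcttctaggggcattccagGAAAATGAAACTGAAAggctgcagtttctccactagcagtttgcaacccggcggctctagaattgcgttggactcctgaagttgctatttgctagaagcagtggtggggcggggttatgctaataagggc
Isg15: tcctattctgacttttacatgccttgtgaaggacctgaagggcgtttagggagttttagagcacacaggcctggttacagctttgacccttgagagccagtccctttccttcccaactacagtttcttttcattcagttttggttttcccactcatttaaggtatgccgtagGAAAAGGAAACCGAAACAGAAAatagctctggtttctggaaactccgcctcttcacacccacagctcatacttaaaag
Ifit1: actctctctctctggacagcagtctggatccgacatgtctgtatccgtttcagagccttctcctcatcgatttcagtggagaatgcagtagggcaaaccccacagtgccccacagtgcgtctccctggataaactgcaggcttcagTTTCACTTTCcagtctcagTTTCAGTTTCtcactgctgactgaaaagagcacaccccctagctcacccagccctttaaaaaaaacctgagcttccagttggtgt
The hypoxia core ACGTG, also searched on both strands, lay in 14 of 22 HIF list members (63.6%) against 22% of all genes, with the same share among members that rose (7 of 11) and those that did not (7 of 11).

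Genes of mitosis that passed were higher. Of 29 measured, 11 rose and 0 fell, and the list mean was 0.46 to 0.80 on the iFGFR1 arrays and -0.26 to 0.28 on the Wnt1 arrays, with no overlap. Cdk1, the kinase of mitotic entry, stood at 1.03, 1.0, 0.93 and 0.49 on the iFGFR1 arrays, against -0.19, -0.06 and 0.14 as the lowest, median and highest of the Wnt1 arrays and rose by 0.90 (SE 0.16, adjusted p = 0.000957). Ndc80, a kinetochore protein, rose by 1.34, the checkpoint kinase Bub1b by 0.99, the motor Kif11 by 0.97, Ccna2 by 0.95 and Top2a by 0.79, while Mki67 (0.14) and Plk1 (0.40) did not pass. Of 30 replication genes 7 rose and 1 (Gins2) fell, with Cdc45, part of the replicative helicase, up by 1.19. Over mitosis, replication and inhibitors together 19 of 76 rose (median 0.40), 6 and 8 without iFGFR1 replicates 1 and 3, 11 without Wnt1 replicate 6 and 31 without Wnt1 replicate 3 and iFGFR1 replicate 2. Normalization, scaling, the fit of 10 arrays and the title number as covariate gave 10 to 12. Ccna2, Top2a and Cdc45 lost their calls in 9, 9 and 1 of 22 alternative settings.

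Inhibitors of the cycle were mostly lower where they passed. Cdkn2a, which codes for p16 and p19ARF, stood at 0.61, 0.63, 0.93 and -0.29 on the iFGFR1 arrays, against 0.94, 1.88 and 2.43 as the lowest, median and highest of the Wnt1 arrays and fell by 1.25 (SE 0.29, adjusted p = 0.00674), with all 4 iFGFR1 arrays below Wnt1. Among p53 targets Zmat3 fell by 1.33, Trp53inp1 by 1.08 and Phlda3 by 0.89, while Mdm2, which degrades p53, rose by 0.77. Cdkn1a, or p21, stood at -1.31 to -0.28 on the iFGFR1 arrays and -1.93 to 0.99 on the Wnt1 arrays, and its difference of -1.18 did not pass (adjusted p = 0.124). Wnt1 replicate 3 alone lay at -1.93 and the other Wnt1 arrays at 0.37 to 0.99, above every iFGFR1 array, and without it the difference was -1.63 (adjusted p = 0.00614). Phlda3 and Mdm2 lost their calls in 12 and 8 of 22 alternative settings.

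The largest falls opened with Apod, a lipocalin that carries small lipids. It stood at -1.28, -1.69, -2.29 and -2.08 on the iFGFR1 arrays, against 1.09, 3.16 and 3.56 as the lowest, median and highest of the Wnt1 arrays. All 4 iFGFR1 arrays lay below Wnt1, Wnt1 replicate 3 was the lowest of its group, and the fall was 4.63 (SE 0.66, adjusted p = 0.000133), or 24.8-fold. Mgp, an inhibitor of calcification that binds BMPs, stood at -0.29, -0.63, -1.12 and -0.47 on the iFGFR1 arrays, against 0.68, 3.05 and 3.59 as the lowest, median and highest of the Wnt1 arrays and fell by 3.42 (SE 0.47, adjusted p = 0.000108). Ecrg4, a secreted growth suppressor, fell by 3.43 (SE 0.34, adjusted p = 3.59e-06), Fibin by 3.41 (SE 0.51) and Slc14a1, a urea channel, by 3.14 (SE 0.42). Sobp, a nuclear protein needed in the cochlea, had the smallest adjusted p of all genes, with -4.30, -4.46, -4.54 and -4.29 on the iFGFR1 arrays, against -1.69, -1.30 and -0.69 as the lowest, median and highest of the Wnt1 arrays. It fell by 3.15 (SE 0.20, adjusted p = 2.29e-08), and it was lower than in iFGFR2 by -2.50 (adjusted p = 8.02e-06) and than in iR2 by -2.37 (adjusted p = 3.85e-06).

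Other large falls were spread over unrelated functions. Maob, which oxidises amines, fell by 3.05 (SE 0.28, adjusted p = 1.46e-06), the dopamine receptor Drd4 by 2.92 (SE 0.35), Tex36 by 3.15 (SE 0.45) and Crym, a thyroid hormone binding protein, by 2.92 (SE 0.66). Each of these was below every Wnt1 array on 4 of 4 iFGFR1 arrays. Snorc, a cartilage proteoglycan, fell by 3.15 (SE 0.51), the scaffold Anks1b by 3.02 (SE 0.56), Slc16a11 by 2.96 (SE 0.54) and Foxd3 by 2.99 (SE 0.68), and for Snorc, Anks1b and Foxd3 Wnt1 replicate 3 lay among the iFGFR1 arrays. The smallest p-values among falls outside the lists were those of Pdgfrl (2.58), the RNA-binding Rbms3 (2.63), Armcx4 (1.85), the phosphatase Ptprs (2.50) and the cortactin binder Cttnbp2 (2.75), with adjusted p of 7.91e-07, 7.91e-07, 7.91e-07, 2.99e-06 and 2.99e-06.

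Retinoid handling genes were lower where they passed, 7 of 29 with 0 higher (median -0.27). The share passed was 24.1%, against 15.4% of all genes. Over the alternative settings 5 to 7 of them fell and 0 to 3 rose. Aldh1a1, which turns retinal into retinoic acid, stood at -1.01, -1.28, -2.21 and -1.68 on the iFGFR1 arrays, against 0.45, 2.91 and 3.22 as the lowest, median and highest of the Wnt1 arrays. It fell by 4.09 (SE 0.44, adjusted p = 9.53e-06), or 17.1-fold, below every Wnt1 array on 4 of 4 arrays, and lay below iFGFR2 and iR2 by the differences -3.71 (adjusted p = 0.000428) and -4.03 (adjusted p = 5.31e-05). Its family member Aldh1a7 fell by 2.58 and Aldh1a3 by 1.78. The retinoic acid receptor gene Rarb fell by 1.87 (SE 0.58, adjusted p = 0.034), Stra6, the importer of retinol, by 1.46, and Cyp26a1 and Cyp26b1, which degrade retinoic acid, by 1.54 and 0.93. The value of Cyp26b1 is the mean of 2 features with differences of -0.29 and -1.58. Rarb, Stra6 and Cyp26a1 are targets of retinoic acid as well. Rarb lost its call in 8 of 22 alternative settings. Cyp26b1 lost its call in 5 of the 21 alternative settings in which it could be fitted.

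Wnt pathway genes that passed were mostly lower, 12 of 69 with 1 higher (median -0.24). The share passed, 18.8%, lay near the 15.4% of all genes. The 14 secreted antagonists had a list mean of -0.91 to -0.89 on the iFGFR1 arrays and -0.29 to 0.10 on the Wnt1 arrays, without overlap, and 4 of them fell. Wif1, which binds Wnt ligands, stood at -0.18, -0.54, -0.64 and -1.37 on the iFGFR1 arrays, against 1.82, 2.49 and 3.11 as the lowest, median and highest of the Wnt1 arrays and fell by 3.14 (SE 0.24, adjusted p = 2.07e-07). Sostdc1, which blocks Wnt co-receptors and BMPs, stood at -0.29, -1.06, -1.10 and -1.43 on the iFGFR1 arrays, against 0.20, 2.94 and 3.20 as the lowest, median and highest of the Wnt1 arrays and fell by 3.51 (SE 0.46, adjusted p = 6.17e-05). Sfrp2 fell by 2.24 and Dkk3 by 1.39. For Wif1 and Sostdc1 the groups did not overlap. All 4 antagonists that fell were lower than in iFGFR2 and in iR2 too, Wif1 by the differences -2.69 (adjusted p = 2.27e-05) and -2.94 (adjusted p = 3.7e-06).

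Lgr5, the R-spondin receptor and a target of Wnt signalling, stood at -1.54, -1.91, -1.87 and -1.64 on the iFGFR1 arrays, against 0.07, 1.23 and 1.75 as the lowest, median and highest of the Wnt1 arrays. It fell by 2.90 (SE 0.43, adjusted p = 0.000215) without overlap. Its ligand Rspo1 fell by 2.21 and the non-canonical ligand Wnt5b by 1.59. Ctnnb1, β-catenin itself, fell by 0.84 (SE 0.19, adjusted p = 0.00656), the factor Tcf4 by 1.61, the surface inhibitor Apcdd1 by 1.67, Ccn5 by 1.95 and Tnfrsf19 by 1.21. Nkd1, an inhibitor that Wnt signalling induces, was the exception and rose by 1.86 (SE 0.32, adjusted p = 0.000694), and the standard target Axin2 did not pass (0.35). Prom1 and Lgr5, both used as markers of progenitor cells, thus moved in opposite directions. Rspo1 and Ctnnb1 lost their calls in 3 and 1 of 22 alternative settings.

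Notch and TGF-β family genes that passed were mostly lower too. Of 9 Notch receptors and ligands 4 fell and 1 rose, with a list mean of -0.48 to 0.06 on the iFGFR1 arrays and 0.19 to 0.57 on the Wnt1 arrays. Notch1 stood at -0.36, -0.52, -0.25 and -0.94 on the iFGFR1 arrays, against 0.37, 0.51 and 1.2 as the lowest, median and highest of the Wnt1 arrays and fell by 1.12 (SE 0.22, adjusted p = 0.00199), and the ligands Dll1, Dll4 and Jag2 fell by 1.46, 1.21 and 1.07. Notch4 stood at 0.73, 1.21, -0.04 and 0.70 on the iFGFR1 arrays, against -1.46, -1.11 and -0.64 as the lowest, median and highest of the Wnt1 arrays and rose by 1.72 (SE 0.25, adjusted p = 0.000201). Among 14 targets and modulators 1, Hes6, passed, up by 0.54 (median of the whole list -0.13), and Hes1 (-0.17) did not. Dll4 lost its call in 3 of 22 alternative settings. Hes6 lost its call in 9 of the 21 alternative settings in which it could be fitted.

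Of 42 TGF-β and BMP genes 8 fell and 0 rose (median -0.09). The share passed, 19.0%, lay near the 15.4% of all genes. Id4, an inhibitor of helix-loop-helix factors and a BMP target, stood at 1.15, -0.78, -0.06 and -0.63 on the iFGFR1 arrays, against 2.45, 2.88 and 3.36 as the lowest, median and highest of the Wnt1 arrays and fell by 3.01 (SE 0.38, adjusted p = 4.77e-05), and Id3 fell by 0.84. Replicate 1 was the highest iFGFR1 array for Id4, and still below every Wnt1 array. The ligands Tgfb2 and Inhba fell by 1.48 and 2.11, the receptor Tgfbr2 by 0.75, Fstl1 by 1.45, Ltbp4 by 0.83 and Smad1 by 0.72. Tgfb1 did not pass (0.36). Smad1 and Id3 lost their calls in 6 and 2 of 22 alternative settings.

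**Figure D4:**
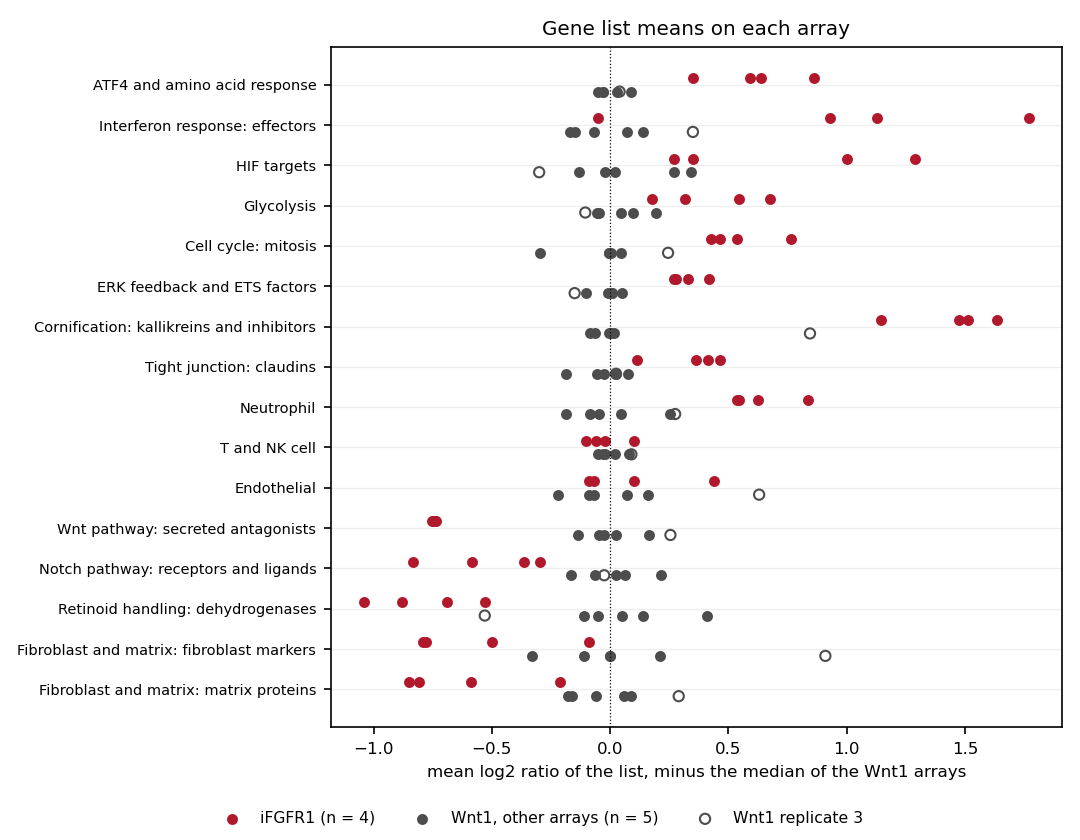
Mean log2 ratio of each gene list on each array, minus the median of the 6 Wnt1 arrays, with red points for iFGFR1, filled grey points for 5 Wnt1 arrays and an open circle for Wnt1 replicate 3. The ATF4 list, mitosis, kallikreins and Wnt antagonists separate the groups completely, while for interferon effectors and HIF targets at least 1 iFGFR1 array lies among the Wnt1 arrays.

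Stromal and matrix genes that passed were mostly lower. Of 39 measured, 15 fell and 1 rose (median -0.60). The mean of 16 fibroblast markers was -2.93, -2.64, -2.92 and -2.23 on the iFGFR1 arrays and -2.47 to -1.23 on the Wnt1 arrays, so iFGFR1 replicate 4 overlapped the Wnt1 range. Pdgfra, the receptor that marks fibroblasts, stood at -3.55, -3.83, -3.62 and -3.32 on the iFGFR1 arrays, against -1.92, -0.77 and -0.67 as the lowest, median and highest of the Wnt1 arrays and fell by 2.61 (SE 0.28, adjusted p = 8.33e-06) without overlap, and was lower than in iFGFR2 by -2.18 (adjusted p = 0.000692) and than in iR2 by -2.84 (adjusted p = 1.81e-05). The proteoglycans Dcn and Lum fell by 1.79 and 1.87, S100a4 by 1.41 and Pdgfrb by 1.15, while Dpt rose by 1.45. Of the matrix proteins Matn2 fell by 2.10, Fbln1 by 1.83, Vcan by 1.73 and Sparc by 0.89. Lum, S100a4 and Dpt lost their calls in 4, 1 and 1 of 22 alternative settings.

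Collagens fell in 10 cases of 34 and rose in 1, Col4a4 (median -0.40). Col1a2, a chain of the main fibrillar collagen, stood at -4.97, -5.46, -4.28 and -3.90 on the iFGFR1 arrays, against -3.87, -3.28 and -1.80 as the lowest, median and highest of the Wnt1 arrays and fell by 1.59 (SE 0.35, adjusted p = 0.00487), with no overlap, and Col4a1 of the basement membrane fell by 1.21. Col1a1 (-0.54) and Col3a1 (-0.92) did not pass. Among matrix proteases Mmp2 rose by 2.30 (SE 0.65, adjusted p = 0.0219), with Wnt1 replicate 3 within the iFGFR1 range, its activator Mmp14 fell by 1.72 (SE 0.39, adjusted p = 0.00618) and the inhibitor Timp3 fell by 1.87 (SE 0.39, adjusted p = 0.00313). In all 6 of 42 proteases and inhibitors rose and 6 fell (median 0.06). Mmp2 and Col1a2 lost their calls in 3 and 1 of 22 alternative settings.

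Markers of immune and vascular cells were counted list by list, beside the 15.4% of all genes that passed. Of 22 neutrophil genes 7 rose and 2 fell (median 0.46), and the list mean was -1.29 to -0.99 on the iFGFR1 arrays and -2.01 to -1.55 on the Wnt1 arrays, with no overlap. S100a8, a subunit of calprotectin, stood at -4.01 to -2.54 on the iFGFR1 arrays and -6.27 to -3.80 on the Wnt1 arrays, and it rose by 2.56 (SE 0.38, adjusted p = 0.000207). Its partner S100a9 stood at -5.18 to -3.74 on the iFGFR1 arrays and -6.53 to -5.20 on the Wnt1 arrays, and it rose by 1.59 (SE 0.27, adjusted p = 0.000752). Both lay far below the whole-mouse pool. The receptor Cxcr2 rose by 0.83 and Lcn2 by 1.36, but Ltf fell by 1.70 and Prtn3 by 1.28, and the defining markers Csf3r (0.42), Itgam (0.45) and Mpo (0.05) did not pass. S100a8, S100a9, Lcn2 and Pglyrp1 are also made by epithelium, and the part of neutrophils in these rises was not tested. The attractant Cxcl1 rose by 1.68 (SE 0.34, adjusted p = 0.0026). Ltf, Lcn2 and Cxcr2 lost their calls in 11, 7 and 1 of 22 alternative settings.

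Tslp, an epithelial cytokine, stood at 2.10, 1.24, 3.67 and 2.77 on the iFGFR1 arrays, against -0.53, 0.07 and 0.38 as the lowest, median and highest of the Wnt1 arrays. It rose by 2.44 (SE 0.39, adjusted p = 0.000399) without overlap and exceeded iFGFR2 by 3.31 (adjusted p = 0.0004) and iR2 by 2.80 (adjusted p = 0.000401). The stromal chemokine Cxcl12 rose by 1.35, while Il1b and Il18 fell by 1.01 and 1.45 and the chemokines Cxcl13, Ccl19, Cxcl9, Cxcl14 and Ccl27a fell by 1.49, 1.40, 1.17, 1.12 and 0.90. Over 47 cytokines and chemokines 3 rose and 7 fell (median 0.06). With the title number as covariate 4 fell, and without Wnt1 replicate 3 5 genes rose. Cxcl14, Il1b, Ccl19, Cxcl12 and Cxcl9 lost their calls in 8, 7, 2, 1 and 1 of 22 alternative settings.

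Of 28 macrophage markers 2 rose and 5 fell (median -0.36), with list means of -0.20 to 0.14 in iFGFR1 and -0.24 to 0.60 in Wnt1 that overlapped. Of these markers 2 fell without iFGFR1 replicate 3, 3 without iFGFR1 replicate 1 or Wnt1 replicate 2 or with array weights, and 1 with the title number as covariate. C1qa, Trem2 and Ccr2 fell by 0.76, 0.67 and 1.26, and Adgre1 (-0.36) and Mrc1 (0.07) did not pass. Cd74, the invariant chain of class II antigen presentation, stood at -0.44, 0.08, -1.56 and -1.27 on the iFGFR1 arrays, against 0.70, 1.46 and 2.02 as the lowest, median and highest of the Wnt1 arrays and fell by 2.22 (SE 0.31, adjusted p = 0.000105), but H2-Aa (-0.81) and H2-Ab1 (-0.54) did not pass. Without iFGFR1 replicate 1 the difference of H2-Aa was -1.15 (adjusted p = 0.046). Of 10 measured class II genes 2 fell and 0 rose (median -0.54), and 1 of the 10 differences lay above 0. The class II list mean was 0.09 to 0.51 on the iFGFR1 arrays and 0.57 to 1.15 on the Wnt1 arrays, without overlap. Among 29 T and NK cell markers 1, Cd3d, rose and 0 fell (median 0.05), and among 26 endothelial markers 2 rose and 1 fell (median -0.07), with Pecam1 (0.11) not passing. The shares passed, 3.45% and 11.5%, lay below the 15.4% of all genes. B cell markers passed in 1 case upward and 2 downward of 13 (median -0.21). The fall was led by Pou2af1, a coactivator of B cells that tuft cells also express, at 2.74 (SE 0.46, adjusted p = 0.000549). Markers of adipocytes (13) and mast cells (8) had no gene past the threshold. The list means of adipocyte markers were -3.30 to -3.16 in iFGFR1 and -3.66 to -2.67 in Wnt1, and those of skeletal muscle -4.31 to -2.71 in iFGFR1 and -4.17 to -3.35 in Wnt1, all far below the whole-mouse pool. Ccr2 and C1qa lost their calls in 10 and 7 of 22 alternative settings. Trem2 lost its call in 1 of the 21 alternative settings in which it could be fitted.

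The iFGFR1 tumours were also compared directly with the other receptor tumours. Against iFGFR2, 156 genes were higher (0.924%) and 204 lower (1.21%), 2.13% together, and against iR2 1155 were higher (6.84%) and 813 lower (4.81%), 11.7% together. These comparisons share the iFGFR1 arrays with each other and with the comparison to Wnt1, so no overlap between them is given. Klk7 differed from iFGFR2 by 5.30 (adjusted p = 0.00229) and from iR2 by 5.86 (adjusted p = 0.00029). Apod differed from them by -3.44 (adjusted p = 0.0146) and -4.39 (adjusted p = 0.000719), Id4 by -2.45 (adjusted p = 0.00343) and -2.88 (adjusted p = 0.000273), and Maob by -2.04 (adjusted p = 0.00146) and -2.24 (adjusted p = 0.000215).

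**Figure D5:**
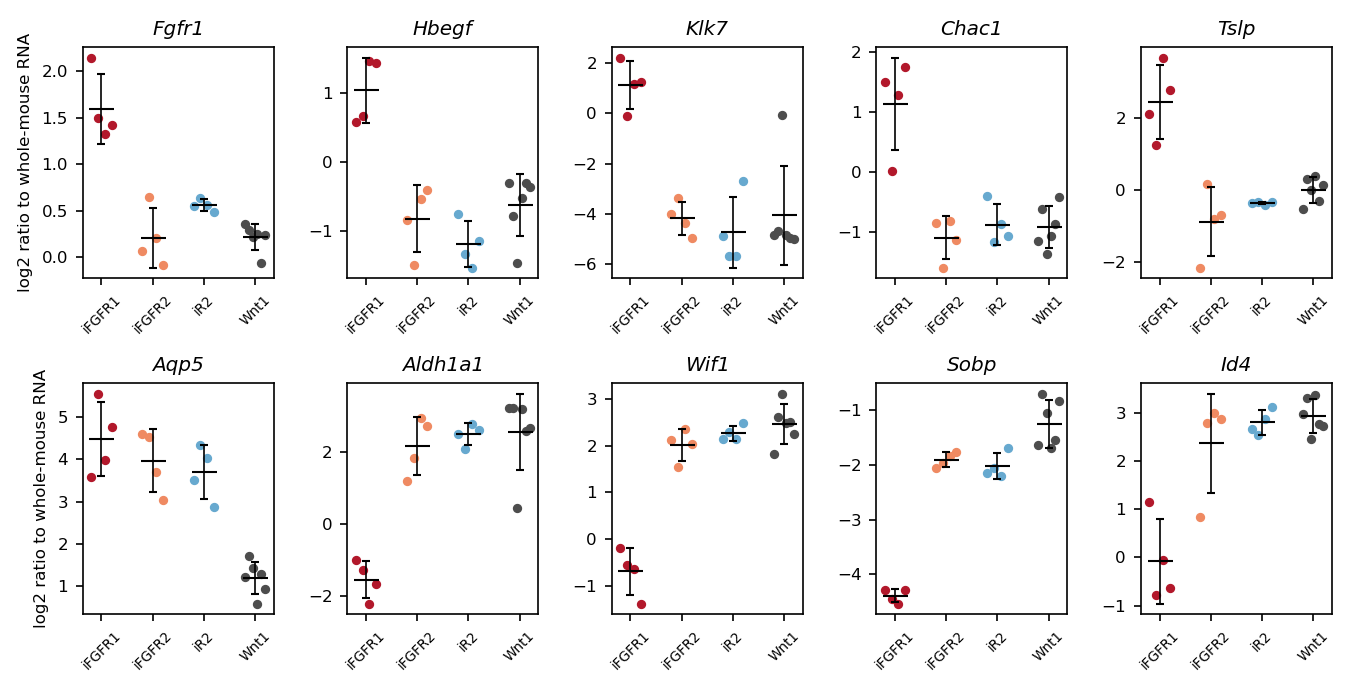
Log2 ratios to whole-mouse RNA of 10 genes on every array of iFGFR1, iFGFR2 and iR2 (n = 4 each) and Wnt1 (n = 6), with the mean as a bar and the SD as its error. The 10 genes were picked for display and do not stand for all genes that passed. For Aqp5 all 3 receptor groups lie above Wnt1, while for the other 9 genes the iFGFR1 arrays stand apart from the 3 other groups, with Wnt1 replicate 3 the exception for Klk7 and for Id4 1 iFGFR2 array below the highest iFGFR1 array.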

How the data were processed

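Tumour RNA was hybridised against whole-mouse RNA on 18 arrays with 2 channels, and 4 iFGFR1 and 6 Wnt1 arrays were compared. The deposited values were read as log2 ratios, with column medians of -0.023 to 0.009, and used without further normalization. Their log base and direction are not stated, and earlier steps before deposit were, beyond this, not given in the sources used here. Of 22575 features, 18658 had 1 gene symbol in the platform annotation, 30 had several and 3887 none. Features were averaged per symbol, giving 16887 genes. In the 1081 genes with 2 features the features' median correlation over the arrays was 0.071, so an average can join features that disagree.

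The lmFit and eBayes steps of limma 3.58.1 (R 4.3.3) fitted 4 group means over all 18 arrays. The contrasts were iFGFR1 minus Wnt1, iFGFR1 minus iFGFR2 and iFGFR1 minus iR2, each adjusted by Benjamini-Hochberg over all genes at a threshold of 0.05. The fit was tested on simulated data. Tables and figures used Python 3.11.15, pandas 2.3.3, numpy 2.4.6 and matplotlib 3.10.9. Alternatives changed the normalization, scaling, arrays in the fit, weights, prior, features per gene, variance filter, title number and threshold, or left out arrays. Leaving out Wnt1 replicate 3 and iFGFR1 replicate 2 together was chosen after seeing the data. So was a fit of all features without averaging, in which those without a single symbol were counted apart.

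The comparison and the 52 gene lists were chosen with earlier results of these data known, so lists have counts and medians and no test. Named are the label genes, the 20 largest rises and falls, list members that passed (up to 8 per role) or are anchors, and the 5 smallest p-values in each direction outside these. Promoters, 250 bases before the start, came from RefSeq (GRCm38.p6). No pair of arrays held identical values.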

Additional observations from a re-analysis of the deposited data

Results flagged for a closer look

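Within each group of arrays, 307 genes and 27 gene lists were searched for an array far from the others of its group by Dixon's criterion. It picked out 75 of 668 groups of values (11.2%), where chance picks about 1 in 20, and 49 of them lay in Wnt1 replicate 3.

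iFGFR1 replicate 1 stood far above the other arrays of its group for Mpo (-3.19) and Slc7a3 (1.73). iFGFR1 replicate 1 stood far below the other arrays of its group for Ccn5 (-1.35), Kcnn4 (3.36) and Pfkfb4 (-2.37). iFGFR1 replicate 2 stood far below the other arrays of its group for Car13 (-1.67), Cldn1 (0.69), Ddit3 (-0.46), Eif3c (0.09), Eif4ebp1 (-0.27) and the list mean of Tight junction (0.37). iFGFR1 replicate 3 stood far below the other arrays of its group for Ctnnb1 (-1.08). iFGFR1 replicate 4 stood far above the other arrays of its group for Actg2 (-0.03), Fstl1 (-3.28), Jag2 (-0.57), Lor (-4.0), Tspan1 (2.40) and the list mean of Collagens (-0.85).

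Wnt1 replicate 1 stood far below the other arrays of its group for Slc7a5 (0.68). Wnt1 replicate 2 stood far above the other arrays of its group for Cxcl13 (0.53). Wnt1 replicate 2 stood far below the other arrays of its group for Bdnf (1.23) and Ero1a (-0.45). Wnt1 replicate 3 stood far above the other arrays of its group for Acly (0.88), Car6 (-2.71), Cdc45 (0.97), Csn1s1 (7.57), Csn2 (6.71), Dcn (-0.75), Dpt (-1.47), Elf5 (5.44) and Klk6 (3.24). It did so as well for Klk7 (-0.08), Krtdap (-2.22), Lalba (3.51), Lum (-1.52), Myh11 (-0.58), Notch1 (1.2), Pecam1 (-0.49), Phactr1 (-0.20) and Phlda1 (2.93). It did so as well for S100a8 (-3.80), Thrsp (-0.13), Trf (0.65) and Wap (1.26). Wnt1 replicate 3 stood far below the other arrays of its group for Aldh1a1 (0.45), Aldh1a7 (-0.96), Anks1b (-1.95), Anxa8 (0.36), Apcdd1 (-1.2), Calml3 (-0.13), Cdkn1a (-1.93), Cyp26a1 (-0.33) and Ephb6 (-0.15). It did so as well for Evpl (-0.28), Fbp1 (-6.41), Fibin (-2.18), Foxd3 (-1.41), Gsta4 (0.12), Lgr5 (0.07), Ly6d (0.31), Mgp (0.68) and Nkd1 (-1.31). It did so as well for Pdgfra (-1.92), Rarb (-1.94), Rbms3 (-0.35), Slc16a11 (-0.03), Sostdc1 (0.20), Tex36 (1.59), Tgm1 (0.10), Tnfrsf19 (0.73) and Trp53inp1 (-0.22). Wnt1 replicate 4 stood far below the other arrays of its group for Pgr (0.42). Wnt1 replicate 5 stood far above the other arrays of its group for Dusp4 (1.14). Wnt1 replicate 5 stood far below the other arrays of its group for Etv1 (-0.98) and Fgfr1 (-0.06). 

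For most of the genes that passed, these values of Wnt1 replicate 3 lay toward the iFGFR1 arrays. Klk7, Klk6, Calml3, Fbp1, Foxd3, Aldh1a1, Mgp, Sostdc1, Lgr5 and Trf were among them. The values lay on the far side from iFGFR1 for Dcn, Lum, Notch1 and Nkd1.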

How the results depend on the processing

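The number of genes passed lay between 1750 and 3481 with 1 array left out in turn or with Wnt1 replicate 3 and iFGFR1 replicate 2, the arrays that stood apart, both left out, and the number higher between 920 and 1878. At an adjusted p under 0.01, 1023 genes passed, 531 higher and 492 lower, and with a difference of at least 1 log2 unit 1137, 594 higher and 543 lower. Of 261 genes named here that passed, 240 could be fitted in all 22 alternative settings, and 169 of these passed in all. Of those that could be fitted in fewer settings, 12 passed in each of them, and no named gene that passed changed direction in any setting run. Calls were lost in 433 of 5719 combinations of such a gene and a setting, and the cause was not tested. List medians moved by more than the SD between arrays of the list mean, pooled within groups, in 45 of 594 combinations. Under the filter on variance the median was 0.85 for ATF4 and amino acid response, 0.78 for Arginine and polyamine, -0.43 for B and plasma cell, 0.58 for Carbonic anhydrases and aquaporins, 0.53 for Cell cycle, 0.63 for ERK feedback and ETS factors, 0.74 for Neutrophil, -0.34 for Notch pathway, 0.14 for T and NK cell, 0.58 for Tight junction and -0.33 for Wnt pathway. Under the title number as covariate the median was 0.25 for Arginine and polyamine, 0.58 for Carbonic anhydrases and aquaporins, -0.08 for Macrophage, 0.66 for Neutrophil and -0.25 for Notch pathway. Under scaling of the arrays to 1 median absolute deviation the median was 0.61 for Carbonic anhydrases and aquaporins, 0.10 for ERK feedback and ETS factors, 0.78 for Glycolysis, 0.41 for Keratins and 0.79 for Neutrophil. Under quantile normalization the median was 0.12 for ERK feedback and ETS factors. With 1 array left out in turn, or both apart arrays, it lay between 0.40 and 0.66 for ATF4 and amino acid response, 0.25 and 0.43 for Arginine and polyamine, 0.33 and 0.53 for Cell cycle, -0.18 and 0.01 for EGF receptor axis, 0.10 and 0.40 for ERK feedback and ETS factors, 0.52 and 0.77 for Glycolysis and -0.03 and 0.40 for Luminal progenitor and alveolar. Likewise it lay between 0.38 and 0.64 for Neutrophil, -0.21 and -0.09 for Notch pathway, -0.06 and 0.10 for T and NK cell, 0.09 and 0.25 for Tight junction and -0.26 and -0.12 for Wnt pathway. Among genes that did not pass, some changed sign. Under scaling of the arrays to 1 median absolute deviation the difference was -0.01 for B2m, -0.04 for H2-K1, 0.25 for Myh11 and -0.05 for Pgr. Under array weights the difference was 0.00 for Csn1s1, 0.31 for Lalba, -0.10 for Lor and 0.32 for Myh11. Under the title number as covariate the difference was -0.27 for Esr1, 0.12 for Fkbp1a, 0.09 for H2-Ab1, 0.20 for Lalba, -0.06 for Lor, 0.43 for Myh11 and 0.18 for Wnt1. Under quantile normalization the difference was -0.05 for Mpo and -0.06 for Pgr. With 1 array left out in turn, or both apart arrays, it lay between -0.17 and 0.34 for B2m, -1.32 and 0.81 for Csn1s1, -1.32 and 0.62 for Csn2, -0.02 and 0.42 for Esr1, -0.27 and 0.12 for Fkbp1a, -0.39 and 0.05 for Hes1 and -0.48 and 0.00 for Irf1. Likewise it lay between -0.34 and 0.43 for Lalba, -0.53 and 0.40 for Lor, -0.01 and 0.28 for Mki67, -0.13 and 0.13 for Mpo, -0.23 and 0.42 for Mrc1, -0.16 and 0.47 for Myh11 and -0.05 and 0.30 for Pecam1. Likewise it lay between -0.07 and 0.34 for Pgr, -0.40 and 0.03 for Slc7a11, -0.14 and 0.01 for Spry2 and -0.20 and 0.26 for Trp63. No paired analysis was possible because the labels carry no replicate numbers that groups share, and the numbers used here follow the order of deposit. Ratios to a pool carry no count of reads, so the number of arrays limits the precision.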

Other observations

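Gene groups not described above were counted in the same fit, where 8.38% of all genes were higher and 7.06% lower in iFGFR1 tumours. Of 61 translation factors 13 rose and 0 fell, among them Eif4ebp1 (2.27), Eif3c (1.23) and Eif6 (0.91). Of 67 ribosomal protein genes 1 rose and 3 fell (0 to 6 rose and 1 to 6 fell over the alternative settings). Oxidative phosphorylation genes rose in 9 and fell in 4 of 82 cases, with Atp5b, a catalytic subunit of ATP synthase, up by 1.2. Without iFGFR1 replicate 1 or Wnt1 replicate 5 the number risen was 4 or 5, and over the alternative settings 0 to 5 fell. Of 24 genes of fatty acid oxidation 6 rose and 1 fell, and of 29 genes of sterol and fatty acid synthesis 7 rose and 1 fell, with Acly, which supplies acetyl-CoA, up by 1.18 and the desaturase Fads1 down by 1.54. Per1, a repressor of the circadian clock, rose by 1.26, and it was the single gene to pass among 14 clock genes.

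Smaller groups split. Of 23 NRF2 targets 2 rose and 2 fell, with the glutathione transferase Gsta4 down by 2.04. Of 20 chaperones of the endoplasmic reticulum 3 rose and 1 fell, and of 10 heat shock genes 1 rose and 2 fell. Immediate early genes rose in 4 and fell in 2 of 20 cases, with Nr4a1 up by 1.41. The number risen was 2 without iFGFR1 replicate 3 or 4, and none fell without iFGFR1 replicate 1 or 3 or Wnt1 replicate 2, 5 or 6, or with array weights. S100 genes rose in 3 and fell in 3 of 14 cases, and mucosal defence genes in 4 and 5 of 39, where haptoglobin, Hp, fell by 2.33. Milk genes rose in 3 and fell in 2 of 19 cases. Epithelial and mesenchymal state genes rose in 2 and fell in 3 of 19 cases, and IGF axis genes in 1 and 0 of 15. Over the alternative settings 1 to 5 chaperones rose, 1 to 5 S100 genes fell and 1 to 3 epithelial and mesenchymal state genes fell. Pericyte markers rose in 0 and fell in 1 of 7, nerve markers in 0 and 1 of 9, and erythroid and platelet markers in 1 and 1 of 7.

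All features were also fitted together without averaging, and those without a single gene symbol were counted apart. Of 3917 such features 278 (7.1%) passed, 116 higher and 162 lower, against 2654 of 18658 features (14.2%) with 1 symbol.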
